A study of Homo sapiens with 16 samples.

Results

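EIF4A3, the RNA helicase at the centre of the exon junction complex, was examined together with 4 genes for its partners in that complex (MAGOH, MAGOHB, RBM8A and CASC3) and 5 genes for factors of nonsense-mediated decay (UPF1, UPF2, UPF3A, UPF3B and SMG1). These 10 genes, of 34228 in the count table, were chosen by symbol with their values in the 8 libraries already known. Their levels and differences are therefore given as a description, without p-values. All 10 genes were found in the table and all 10 passed the filter on low counts. EIF4A3 RNA was 5.54-fold higher with corin in 451Lu-R cells and 2.66-fold higher in 1205Lu-R cells, while MAGOH, MAGOHB, RBM8A and CASC3 were each lower with corin in both lines.

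The exon junction complex is deposited on spliced mRNA a short distance upstream of each junction. EIF4A3 clamps the RNA, the heterodimer of MAGOH (or its near-identical paralogue MAGOHB) and RBM8A (also called Y14) locks it in place, and CASC3 joins at the periphery. A complex that remains downstream of a stop codon during translation is bridged by UPF3A or UPF3B and UPF2 to the helicase UPF1, which the kinase SMG1 phosphorylates, and the mRNA is then degraded. The pathway removes transcripts with premature stop codons and also sets the level of many normal mRNAs, among them stress-response transcripts and splicing-factor isoforms.

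RNA-Seq was performed on 451Lu-R and 1205Lu-R, established human melanoma lines made resistant to BRAF inhibitors (BRAFi-R). They received for 24 h either 2.5 μM corin, a compound that blocks both the histone deacetylases and the demethylase LSD1 of the CoREST co-repressor complex, or its solvent DMSO, which gave 4 groups of 2 libraries. Both lines had become resistant by long culture in the BRAF inhibitor PLX4032, and routine culture kept them in 5 μM of it. PLX4032 was no part of either treatment. Whether and when it was withdrawn before the 24 h is not given, so DMSO may not be a baseline free of earlier inhibitor. The sources used here do not state whether the replicates were separate cultures, so SEs cover only the spread between these libraries. The other 8 samples of the series, treated with PLX4032 with or without corin, are not analysed here.

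Libraries held 9516687 to 11797788 estimated counts. The 6 melanocytic markers MITF, SOX10, PMEL, MLANA, TYR and DCT summed to 13230 to 13310 counts per 1000000 (CPM) with DMSO and 11400 to 11440 CPM with corin in 451Lu-R cells. The same sum in 1205Lu-R was 7.25 to 8.38 CPM with DMSO and 16.6 to 18.8 CPM with corin. SOX10 and TYR were at 0 in every library of 1205Lu-R, so defining melanocyte markers were absent from that line. Most of its sum was MITF, at 89 and 67 counts before and 157 and 167 after corin. Single markers of 451Lu-R moved in both directions. MITF fell there from 8524 and 7769 counts to 3388 and 2862, and SOX10 from 8426 and 7183 to 2735 and 2360. MLANA and TYR also fell, whereas DCT rose from 18162 and 16132 counts to 31757 and 26590. PMEL, the largest part of the 451Lu-R sum, overlapped between treatments in raw counts. The 4 invasive markers were AXL, WNT5A, EGFR and NGFR. In 451Lu-R they summed to 8.02 to 8.07 CPM with DMSO and 371 to 379 CPM with corin. In 1205Lu-R they summed to 1251 to 1265 CPM with DMSO and 803 to 816 CPM with corin. By raw counts, NGFR made up most of the 451Lu-R rise, going from 14 and 8 to 4185 and 3482. AXL there reached only 29.2 and 23.4. The markers split in 1205Lu-R, where NGFR climbed from 62 and 65 counts to 1960 and 2212. AXL there dropped from 10486 and 10369 counts to 4569 and 5235, WNT5A dropped from 2208 and 1997 to 354 and 421, and EGFR overlapped. Of the 6 listed markers of leukocytes, endothelium and epithelium, 5 were found, and these summed to at most 9.81 CPM in any library. PECAM1 was at 0 counts in all 4 libraries of 451Lu-R. In 1205Lu-R it held 67.3 to 104.2 counts per library, nearly the whole sum there. KRT14 was at 0 counts in all 4 libraries of 1205Lu-R. The corin libraries of 451Lu-R held 56 and 44 counts of KRT14, against 3 and 4 in the DMSO libraries. The marker sums moved with treatment, and their part in the differences below was not tested. In such bulk libraries, fewer cells of a type and less RNA per cell cannot be told apart.

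EIF4A3 (ENSG00000141543, chr17:80134369-80147151, minus strand, hg38) stood at 319.9 and 318.6 CPM in the DMSO libraries of 451Lu-R and at 1792 and 1806 CPM in the corin libraries. CPM here are scaled by TMM (trimmed mean of M values, a correction for library composition). In 1205Lu-R it stood at 140.9 and 135.3 CPM with DMSO and at 364.1 and 363.8 CPM with corin. The libraries of the 2 treatments did not overlap in either line, and replicates differed by a small part of the gap between treatments. The log2 fold changes were 2.47 ± 0.021 (SE, n = 2 libraries per group) in 451Lu-R and 1.41 ± 0.034 in 1205Lu-R. Among genes averaging 10 CPM or more, its fold change ranked 475 from the top of 9908 for 451Lu-R and 827 from the top of 9897 for 1205Lu-R, so it was far from the largest. Per kilobase of exonic sequence, its level ranked 659 and 661 among 16021 genes in the DMSO libraries of 451Lu-R and 101 and 102 in the corin libraries. In 1205Lu-R the ranks were 1876 and 1941 with DMSO and 574 in both corin libraries.

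The promoters of EIF4A3 and MAGOH are shown because their transcripts stood on opposite sides of DMSO after corin. The sequences are the 250 bases before the transcription start given by RefSeq on GRCh38.p14, at chr17:80147129-80147378 and chr1:53238519-53238768, both on the minus strand and both written 5′ to 3′. Capitals mark matches on either strand to CACGTG (the E-box), GGGCGG (the GC box, CCGCCC on the other strand) and CTTCCGG (the ETS core).
EIF4A3: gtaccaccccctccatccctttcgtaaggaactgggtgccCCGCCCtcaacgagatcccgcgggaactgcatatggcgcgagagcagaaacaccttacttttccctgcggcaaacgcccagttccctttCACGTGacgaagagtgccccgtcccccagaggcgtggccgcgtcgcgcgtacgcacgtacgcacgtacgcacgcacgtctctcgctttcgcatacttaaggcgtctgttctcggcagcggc
MAGOH: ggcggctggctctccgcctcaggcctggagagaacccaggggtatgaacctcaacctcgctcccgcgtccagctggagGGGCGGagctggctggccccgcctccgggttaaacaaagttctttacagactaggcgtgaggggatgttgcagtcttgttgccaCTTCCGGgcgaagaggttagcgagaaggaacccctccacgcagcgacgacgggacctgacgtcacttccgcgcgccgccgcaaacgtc
The EIF4A3 window held 1 CACGTG and 1 GGGCGG, and the MAGOH window held 1 GGGCGG and 1 CTTCCGG. One of the RefSeq windows of UPF2, which was lower with corin in both lines, also held the E-box. Searched in the same way, neither window held CCAAT (the CCAAT box), the AP-1 site TGANTCA (N being any base) or the TATA box TATAAA. Of 35116 RefSeq promoter windows of this length, 6.34% held CACGTG, 42.6% GGGCGG, 8.52% CTTCCGG, 32.01% CCAAT, 6.57% TGANTCA and 10.7% TATAAA. A match describes letters in the window and says nothing of binding.

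MAGOH and MAGOHB encode the interchangeable partner of RBM8A. Their last 150 coding bases, stop codon included, are shown because an assignment of reads to one or the other rests on such differences. Capitals mark the 20 bases at which the 2 sequences differ. MAGOH is read from the minus strand within chr1:53227045-53228921 and MAGOHB from the minus strand within chr12:10606275-10607903 (hg38), and each span is interrupted by intron sequence that is left out.
MAGOH: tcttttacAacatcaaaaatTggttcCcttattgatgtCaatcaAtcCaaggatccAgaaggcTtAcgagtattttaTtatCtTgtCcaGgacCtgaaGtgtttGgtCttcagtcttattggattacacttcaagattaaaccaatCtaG
MAGOHB: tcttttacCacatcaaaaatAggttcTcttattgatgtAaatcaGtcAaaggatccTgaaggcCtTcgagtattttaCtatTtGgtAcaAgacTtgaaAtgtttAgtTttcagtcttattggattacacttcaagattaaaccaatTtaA
Over 441 aligned coding bases the genes were 86.4% identical, with a longest identical run of 38 bases. The whole annotated transcripts shared 10 distinct 31-base words, 0.74% of those of MAGOH and 0.2% of those of MAGOHB, so little of either transcript was ambiguous at that word length.

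MAGOH (ENSG00000162385, chr1:53226900-53238518) was at 31.7 and 30.9 CPM with DMSO and at 11.6 and 9.75 CPM with corin in 451Lu-R. It was at 32.3 and 27.6 CPM with DMSO and at 20.03 and 20.4 CPM with corin in 1205Lu-R. MAGOH was thus lower in every corin library than in any DMSO library of the same line, by 2.96-fold (log2 -1.56 ± 0.10) in 451Lu-R and 1.46-fold (log2 -0.55 ± 0.095) in 1205Lu-R. MAGOHB (ENSG00000111196, chr12:10604193-10613609) was at 15.5 and 18.1 CPM with DMSO and at 6.43 and 6.53 CPM with corin in 451Lu-R. The same gene was at 65.1 and 57.8 CPM with DMSO and at 29.1 and 30.1 CPM with corin in 1205Lu-R. It was 2.63-fold lower with corin (log2 -1.39 ± 0.14) in 451Lu-R and 2.06-fold lower (log2 -1.04 ± 0.072) in 1205Lu-R, again without overlap between treatments. The corin values of MAGOHB in 451Lu-R rest on 73 and 63 counts, the smallest of the core genes.

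RBM8A (ENSG00000265241, chr1:145921556-145927678), the RNA-recognition-motif protein of the heterodimer, was at 126.3 and 126.4 CPM with DMSO and at 100.7 and 99.8 CPM with corin in 451Lu-R. Its values in 1205Lu-R were 105.6 and 107.5 CPM with DMSO and 55.6 and 53.1 CPM with corin. Treatments did not overlap in either line, and RBM8A showed the reverse order of MAGOH between the lines, with a smaller difference in 451Lu-R (1.28-fold lower, log2 -0.36 ± 0.040) than in 1205Lu-R (1.95-fold lower, log2 -0.96 ± 0.048). Of its 31-base words, 32.9% also occurred in other annotated genes, mainly GNRHR2, which lies on the opposite strand and shares 738 exonic bases with it. Whether strand was used in counting is not given in the sources used here, so reads of the 2 genes may not be separable there. GNRHR2 had 4.67 to 19.1 counts per library against 541 to 1440 for RBM8A.

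CASC3 (ENSG00000108349, chr17:40140318-40172171), the peripheral subunit that favours decay of bound mRNAs, was at 70.2 and 64.7 CPM with DMSO and at 47.5 and 53.0 CPM with corin in 451Lu-R. It was at 100.9 and 97.9 CPM with DMSO and at 73.6 and 72.4 CPM with corin in 1205Lu-R. CASC3 had nearly the same difference in both lines, 1.37-fold lower (log2 -0.46 ± 0.066) in 451Lu-R and 1.35-fold lower (log2 -0.43 ± 0.045) in 1205Lu-R. The plot of levels by library sets these values beside those of the decay factors.

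**Figure D1:**
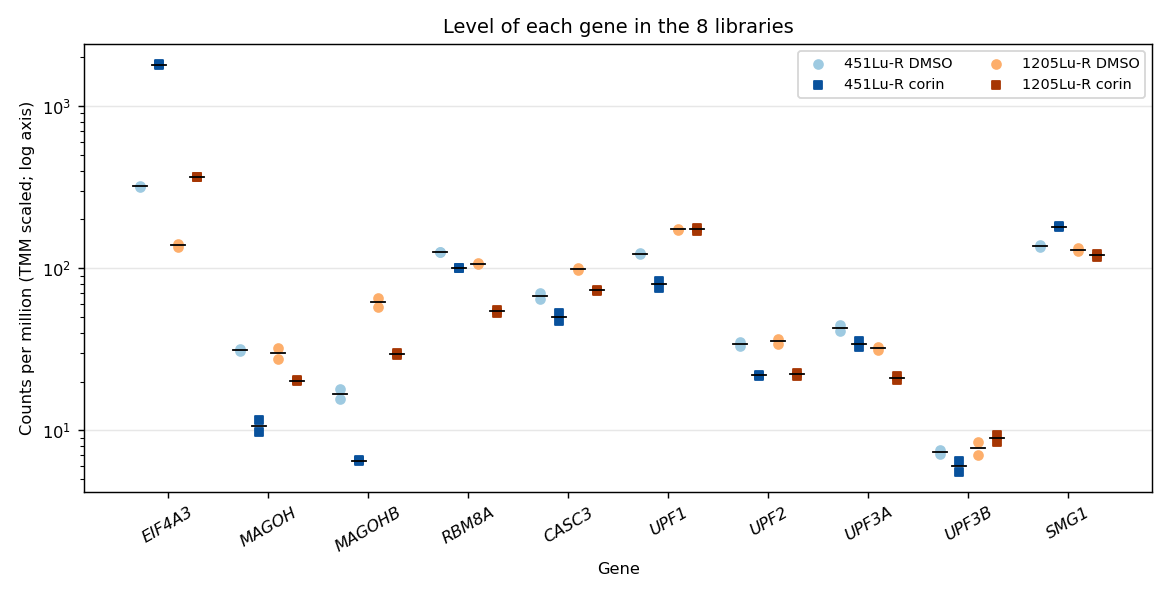
Level of each of the 10 genes in the 8 libraries, in TMM-scaled CPM on a log axis, with a circle or square for each library and a short bar at the mean of its group (n = 2). EIF4A3 reached 1792 and 1806 CPM in the corin libraries of 451Lu-R, while MAGOH and MAGOHB lay lower with corin than with DMSO in both lines.

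UPF1 (ENSG00000005007, chr19:18831959-18868230), the ATP-dependent helicase that commits a transcript to decay, was at 122.6 and 123.3 CPM with DMSO and at 83.6 and 75.7 CPM with corin in 451Lu-R, a 1.56-fold lower level (log2 -0.65 ± 0.048). In 1205Lu-R it was at 171.8 and 174.6 CPM with DMSO and at 169.1 and 177.5 CPM with corin, so the treatments overlapped (log2 0.018 ± 0.036). UPF2 (ENSG00000151461, chr10:11920022-12043170), the adaptor between UPF1 and the UPF3 proteins, was at 35.3 and 33.1 CPM with DMSO and at 21.8 and 22.0 CPM with corin in 451Lu-R. The corresponding values in 1205Lu-R were 34.2 and 36.5 CPM and 21.8 and 22.4 CPM. UPF2 was the steadiest of the decay factors between lines, at log2 -0.67 ± 0.081 in 451Lu-R cells and log2 -0.66 ± 0.083 in 1205Lu-R cells.

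UPF3A and UPF3B are paralogues that bind the exon junction complex, UPF3B being the stronger activator of decay. UPF3A (ENSG00000169062, chr13:114281601-114305817) was at 44.6 and 41.1 CPM with DMSO and at 35.6 and 32.8 CPM with corin in 451Lu-R (log2 -0.35 ± 0.075). It was at 32.8 and 31.3 CPM with DMSO and at 20.3 and 21.7 CPM with corin in 1205Lu-R (log2 -0.59 ± 0.086). UPF3A was lower in every corin library in both lines. UPF3B (ENSG00000125351, chrX:119834022-119852998) was at 7.54 and 7.18 CPM with DMSO and at 5.55 and 6.43 CPM with corin in 451Lu-R (log2 -0.33 ± 0.17). In 1205Lu-R it was at 7.05 and 8.50 CPM with DMSO and at 8.43 and 9.42 CPM with corin, which overlapped (log2 0.22 ± 0.16). UPF3B had only 62 to 107 counts per library, and its SEs are the widest of the 10 genes. Of the 31-base words of UPF3A, 24.0% also occurred in other genes, chiefly its pseudogenes, but the 3 pseudogenes in the table held at most 1.2% of the combined counts in any library.

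SMG1 (ENSG00000157106, chr16:18804860-18926408), the kinase that phosphorylates UPF1, was at 135.9 and 138.2 CPM with DMSO and at 179.6 and 181.3 CPM with corin in 451Lu-R, 1.29-fold higher (log2 0.37 ± 0.035). It was at 126.9 and 132.6 CPM with DMSO and at 117.8 and 122.3 CPM with corin in 1205Lu-R, slightly lower (log2 -0.095 ± 0.040). Other than EIF4A3, it was the only one of the 10 genes with both corin libraries above both DMSO libraries in 451Lu-R. SMG1 has many partial copies on chromosome 16, and 8 of them in the table (BOLA2-SMG1P6 and SMG1P1 to SMG1P7) held 28.5 to 29.3% of the combined counts with DMSO and 17.9 to 18.4% with corin in 451Lu-R. BOLA2-SMG1P6, a read-through transcript, was the largest of them at 359.6 and 328.9 counts in the DMSO libraries and 213.9 and 195.8 counts in the corin libraries of that line. With the copies' counts added to SMG1 the log2 fold change in 451Lu-R was 0.17 rather than 0.37, so the size of the SMG1 difference depends on how reads were divided among copies.

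Read against all genes, 2 of the 10 (EIF4A3 and SMG1) were called higher and 7 lower in 451Lu-R at an edgeR adjusted p under 0.05, where 41.3% of the 14530 genes tested were called higher and 38.6% lower. In 1205Lu-R 1 of the 10 was called higher and 7 lower, against 40.4% and 37.8% of 14563 genes. The 7 became 6 with DESeq2, with library size alone, with a mean of at least 1 CPM required, and without DMSO replicate 2 or corin replicate 1 of that line. At an adjusted p under 0.01 and more than a 2-fold change, EIF4A3 was called higher in both lines (background 21.7% in 451Lu-R and 21.2% in 1205Lu-R), MAGOH and MAGOHB were called lower in 451Lu-R (background 12.9%), and MAGOHB was called lower in 1205Lu-R (background 9.53%). These contrasts belong to the values from which the genes were chosen, so nothing is read from the counts. The 10 genes had a median log2 fold change of -0.41 in 451Lu-R (all genes tested, 0.032) and of -0.49 in 1205Lu-R (all genes tested, 0.034). The plot of fold changes shows EIF4A3 apart from the other 9 genes in both lines.

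**Figure D2:**
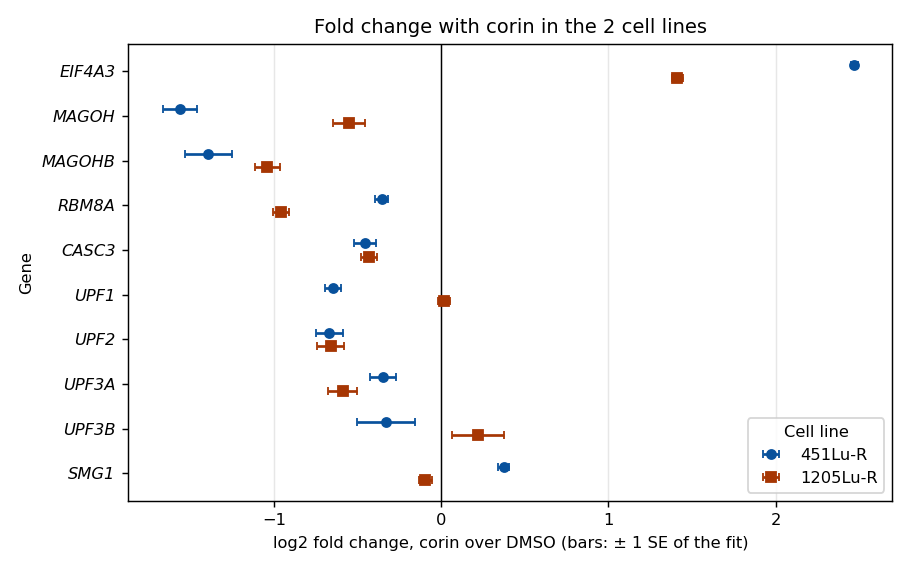
Log2 fold change of each gene with corin over DMSO on the horizontal axis, for 451Lu-R (circles) and 1205Lu-R (squares), with bars of 1 SE of the edgeR fit (n = 2 libraries per group). EIF4A3 lies at 2.47 and 1.41, and MAGOH, MAGOHB, RBM8A, CASC3, UPF2 and UPF3A lie below 0 in both lines.

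The levels of EIF4A3 and its partners were set beside each other per kilobase of merged exons (CPM per kb). The ratio of EIF4A3 to MAGOH and MAGOHB together was 2.09 in both DMSO libraries of 451Lu-R and 31.4 and 36.8 in the corin libraries. The ratio in the DMSO libraries of 1205Lu-R was 0.657 and 0.728, and in the corin libraries 3.04 and 2.97. The mean ratio was therefore 16.3 times higher with corin in 451Lu-R and 4.34 times higher in 1205Lu-R. EIF4A3 over RBM8A went from 2.33 ± 0.0085 (SD, n = 2) with DMSO to 16.5 ± 0.19 with corin in 451Lu-R, and from 1.19 ± 0.050 to 6.17 ± 0.20 in 1205Lu-R. EIF4A3 over CASC3 went from 5.23 ± 0.29 to 39.5 ± 2.8 in 451Lu-R and from 1.53 ± 0.011 to 5.49 ± 0.057 in 1205Lu-R. With DMSO, EIF4A3 was below the summed MAGOH and MAGOHB level in 1205Lu-R and above it in 451Lu-R. These are ratios of RNA levels and depend on the length used, although with the length of the canonical transcript the change in each ratio with corin was nearly the same (16.3 and 4.30 times for MAGOH and MAGOHB).

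Within paralogue families the share of each gene was computed from the same per-kilobase levels. In 451Lu-R, MAGOHB made up 12.1% and 14.2% of MAGOH and MAGOHB with DMSO, and its corin shares of 13.5% and 15.9% overlapped these. In 1205Lu-R the DMSO shares were 36.2% and 37.2% and the corin shares 29.02% and 29.3%, higher than in 451Lu-R in every library. UPF3A made up 72.2% and 71.6% of UPF3A and UPF3B in the DMSO libraries of 451Lu-R, and 73.8% and 69.2% in its corin libraries. Its share in 1205Lu-R went from 67.2% and 61.8% to 51.5% and 50.4%, without overlap. Among the eIF4A helicases, of which EIF4A1 and EIF4A2 serve translation initiation, EIF4A3 made up 10.7% and 10.6% with DMSO and 52.8% in both corin libraries of 451Lu-R. In 1205Lu-R that share was 8.47% and 8.08% in the DMSO libraries, against 22.3% and 22.4% in the corin libraries, so EIF4A3 made up a larger part of the family in each corin library. The share also reflects its relatives. EIF4A1 fell with corin in 451Lu-R (log2 -0.99 ± 0.018) and in 1205Lu-R (log2 -1.01 ± 0.022), whereas EIF4A2 rose in both lines.

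**Figure D3:**
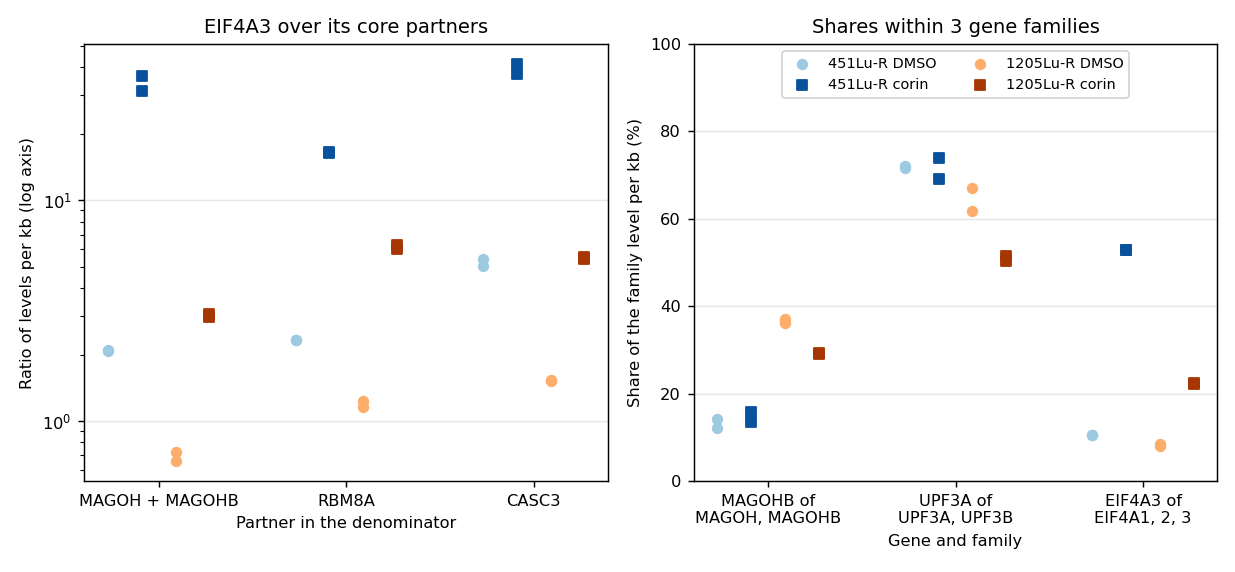
Left, ratio of the EIF4A3 level per kb to that of each core partner in every library, on a log axis. Right, share of the family level per kb in percent; circles are DMSO libraries and squares corin libraries. The ratio to MAGOH and MAGOHB together reached 31.4 and 36.8 in 451Lu-R with corin, and the EIF4A3 share of the eIF4A family reached 52.8%.

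In order of mean level per kb, 451Lu-R with DMSO ran from EIF4A3 (55.2 ± 0.16 CPM per kb) through RBM8A (23.8 ± 0.017), MAGOH (22.9 ± 0.40), UPF1 (13.8 ± 0.053), CASC3 (10.6 ± 0.61), UPF3A (7.45 ± 0.42), UPF2 (5.81 ± 0.26), SMG1 (5.45 ± 0.067) and MAGOHB (3.48 ± 0.38) to UPF3B (2.91 ± 0.10). No neighbours in that order overlapped in their libraries. With corin the order in 451Lu-R was EIF4A3 (311.2 ± 1.7 CPM per kb), RBM8A (18.8 ± 0.11), UPF1 (8.91 ± 0.62), CASC3 (7.89 ± 0.61), MAGOH (7.84 ± 0.98), SMG1 (7.17 ± 0.049), UPF3A (5.94 ± 0.35), UPF2 (3.72 ± 0.025), UPF3B (2.37 ± 0.24) and MAGOHB (1.34 ± 0.014). There CASC3 and MAGOH overlapped, as did MAGOH and SMG1. MAGOH went from the third to the fifth place and MAGOHB to the last. These places depend on the length used. With the canonical transcript length MAGOH went from place 2 to place 3, where it overlapped UPF1, and MAGOHB in the last place overlapped UPF3B.

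With DMSO the order in 1205Lu-R was EIF4A3 (23.9 ± 0.69 CPM per kb), MAGOH (21.9 ± 2.4), RBM8A (20.03 ± 0.25), UPF1 (19.4 ± 0.22), CASC3 (15.6 ± 0.34), MAGOHB (12.7 ± 1.1), UPF2 (6.02 ± 0.28), UPF3A (5.57 ± 0.19), SMG1 (5.16 ± 0.16) and UPF3B (3.07 ± 0.40). The libraries of MAGOH overlapped those of EIF4A3 and those of RBM8A, while EIF4A3 lay above RBM8A without overlap. With corin EIF4A3 (62.97 ± 0.039 CPM per kb) was followed by UPF1 (19.4 ± 0.67), MAGOH (14.8 ± 0.20), CASC3 (11.5 ± 0.12), RBM8A (10.2 ± 0.33), MAGOHB (6.12 ± 0.15), SMG1 (4.77 ± 0.12), UPF2 (3.76 ± 0.080), UPF3A (3.66 ± 0.17) and UPF3B (3.52 ± 0.28). The last 3 overlapped. EIF4A3 kept the first place with the canonical transcript length in all 4 groups, whereas RBM8A, whose canonical transcript spans most of its merged exons, dropped to the sixth place in both groups of 1205Lu-R.

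The lines differed before treatment. With DMSO EIF4A3 was 2.31-fold lower in 1205Lu-R than in 451Lu-R (log2 -1.21 ± 0.042), and MAGOHB was 3.67-fold higher (log2 1.88 ± 0.085). CASC3 was 1.47-fold higher (log2 0.56 ± 0.052) and UPF1 1.41-fold higher (log2 0.49 ± 0.041) in 1205Lu-R, while UPF3A was 1.34-fold lower (log2 -0.42 ± 0.074) and RBM8A 1.19-fold lower (log2 -0.25 ± 0.039). MAGOH (log2 -0.064 ± 0.087), UPF2 (log2 0.048 ± 0.073) and UPF3B (log2 0.075 ± 0.16) overlapped between the lines, and SMG1 was slightly lower in 1205Lu-R without overlap (log2 -0.079 ± 0.039). The SMG1 value was -0.21 with the counts of its copies added and -0.20 with library size alone. Of the 10 genes 3 were called higher and 3 lower in 1205Lu-R at an adjusted p under 0.05, where 38.2% of 16062 genes were called higher and 37.2% lower.

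The response to corin was compared as the log2 fold change in 1205Lu-R minus that in 451Lu-R, estimated in a fit over all 8 libraries. Such a difference can depart slightly from the subtraction of the values printed for each line. The difference was -1.10 ± 0.044 for EIF4A3, which was higher with corin in both lines but less so in 1205Lu-R. It was 0.97 ± 0.15 for MAGOH and 0.63 ± 0.062 for UPF1. MAGOH was lowered less in 1205Lu-R, and UPF1 was lower in 451Lu-R but overlapped between treatments in 1205Lu-R. It was -0.64 ± 0.062 for RBM8A, -0.51 ± 0.055 for SMG1 and -0.28 ± 0.11 for UPF3A. For MAGOHB (0.32 ± 0.16), UPF3B (0.51 ± 0.24), UPF2 (-0.031 ± 0.11) and CASC3 (-0.014 ± 0.080) the difference was about 2 SE or less. Of the 10 genes 2 were called higher and 4 lower, beside 22.6% of 16062 genes called higher and 27.1% lower, and nothing is read from that count. This contrast depends on the scaling. Of all calls 45.4% were higher with TMM and 64.0% with library size alone, which moved the median of all genes from -0.013 to 0.196, and then 5 of the 10 genes were called higher. With library size alone the difference was -0.069 for UPF3A and -0.30 for SMG1, and CASC3 (0.20) and UPF2 (0.18) changed sign.

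Other genes of the same pathways were tested with edgeR, with adjusted p over all genes tested, in 6 lists. The lists were also drawn up with earlier results of these libraries known, so their counts are not independent evidence of a direction. Most genes were called, so each list is to be read beside the shares over all genes tested. For 451Lu-R these shares were 38.6% lower and 41.3% higher. For 1205Lu-R they were 37.8% lower and 40.4% higher. The all-gene medians given with the first list apply to every list. The outer partners of the exon junction complex included ASAP and PSAP subunits, splicing factors that load it and the export factors ALYREF and NXF1. SRRM1, PYM1 and ICE1 were also in this list. In 451Lu-R 8 of these 11 genes fell and 1 rose (median log2 fold change -0.72, beside 0.032 over all genes), and in 1205Lu-R 9 fell and 2 rose (median -0.53, beside 0.034). ALYREF, the export adaptor that binds the complex, was at 169.5 and 161.7 CPM with DMSO and at 26.01 and 23.9 CPM with corin in 451Lu-R (log2 -2.75 ± 0.055, adjusted p = 1.75e-19). In 1205Lu-R ALYREF was at 271.2 and 269.8 CPM and at 54.6 and 53.4 CPM (log2 -2.31 ± 0.040, adjusted p = 4.94e-22). NXF1, the export receptor that ALYREF recruits, moved the other way and rose in both lines (log2 0.49 ± 0.067, adjusted p = 1.43e-06, and 1.20 ± 0.052, adjusted p = 3.56e-15). PNN, a PSAP subunit, fell in 451Lu-R (log2 -1.11 ± 0.067, adjusted p = 7.97e-12) and in 1205Lu-R (log2 -0.82 ± 0.058, adjusted p = 2.49e-11). CWC27, a cyclophilin of the spliceosome that recruits EIF4A3, fell in 1205Lu-R (log2 -1.07 ± 0.081, adjusted p = 7.54e-11) and in 451Lu-R (log2 -0.89 ± 0.099, adjusted p = 8.32e-08). SAP18, shared by ASAP and PSAP, rose in 1205Lu-R (log2 0.33 ± 0.041, adjusted p = 2.74e-07).

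Among 16 other factors of nonsense-mediated decay 13 fell and 3 rose in each line (median -0.41 for 451Lu-R, -0.49 for 1205Lu-R). SMG9, a regulator of the SMG1 kinase, fell from 28.7 and 30.2 CPM to 11.9 and 13.9 CPM in 451Lu-R (log2 -1.22 ± 0.10, adjusted p = 1.00e-09). The fall of SMG9 in 1205Lu-R was from 50.9 and 44.8 CPM to 15.7 and 16.6 CPM (log2 -1.55 ± 0.088, adjusted p = 4.32e-13). DHX34, a helicase that binds UPF1, fell in both lines (log2 -1.25 ± 0.095, adjusted p = 2.77e-10, and -1.51 ± 0.12, adjusted p = 1.52e-10). CTIF, a translation initiation factor of the nuclear cap-binding complex, rose from 12.5 CPM in both DMSO libraries to 48.9 and 42.3 CPM in 451Lu-R (log2 1.85 ± 0.096, adjusted p = 6.29e-13). CTIF also rose in 1205Lu-R (log2 1.25 ± 0.073, adjusted p = 8.08e-13), and PNRC2, a link between UPF1 and decapping, rose slightly in both (log2 0.21 ± 0.042, adjusted p = 0.000153, and 0.28 ± 0.058, adjusted p = 0.000169).

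Of 27 genes for decapping, deadenylation and exonucleases, 23 fell and 2 rose in 451Lu-R (median -0.66), and 20 fell and 2 rose in 1205Lu-R (median -0.58). EXOSC5, a subunit of the RNA exosome ring, fell from 28.2 and 30.5 CPM to 6.43 and 7.46 CPM in 451Lu-R (log2 -2.10 ± 0.12, adjusted p = 1.96e-12), and EXOSC8 of the same ring fell by 1.55 on the log2 scale (adjusted p = 3.96e-10). In 1205Lu-R EXOSC5 and EXOSC8 also fell (log2 -0.92 ± 0.105, adjusted p = 5.96e-08, and -1.16 ± 0.10, adjusted p = 7.28e-10). DDX6, the decapping helicase, fell in 1205Lu-R from 231.7 and 233.4 CPM to 80.5 and 79.2 CPM (log2 -1.53 ± 0.038, adjusted p = 2.32e-19), and the exosome nuclease EXOSC10 fell by 1.36 on the log2 scale (adjusted p = 3.08e-15). In 451Lu-R DDX6 and EXOSC10 also fell (log2 -1.34 ± 0.045, adjusted p = 5.79e-16, and -1.07 ± 0.054, adjusted p = 3.82e-13). DIS3, the catalytic exosome subunit, rose in both lines (log2 0.51 ± 0.044, adjusted p = 2.01e-09, and 0.38 ± 0.046, adjusted p = 1.56e-07). CNOT8, a deadenylase of the CCR4-NOT complex, rose in 451Lu-R (log2 0.58 ± 0.067, adjusted p = 1.33e-07), and EDC4, a decapping scaffold, rose in 1205Lu-R by edgeR (log2 0.22 ± 0.054, adjusted p = 0.00104) but not by DESeq2 (adjusted p = 0.0806).

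EIF4A3 also stood apart from most other helicases of its class. Of 14 DEAD- and DEAH-box genes 12 fell and 1 rose in 451Lu-R (median -0.57), and 13 fell and 1 rose in 1205Lu-R (median -0.56). The riser was EIF4A2 in both lines, from 235.4 and 230.7 CPM to 362.1 and 364.1 CPM in 451Lu-R (log2 0.61 ± 0.027, adjusted p = 3.62e-14) and from 160.6 and 159.5 CPM to 625.3 and 611.9 CPM in 1205Lu-R (log2 1.96 ± 0.032, adjusted p = 1.55e-22). EIF4A2 rose more in 1205Lu-R (interaction 1.31 on the log2 scale, adjusted p = 5.35e-16), the line in which EIF4A3 was raised less. DDX39A, an export helicase, fell in 451Lu-R (log2 -2.26 ± 0.063, adjusted p = 3.05e-17) and in 1205Lu-R (log2 -2.25 ± 0.045, adjusted p = 5.43e-21). DDX39B, its paralogue, fell in 451Lu-R (log2 -1.01 ± 0.042, adjusted p = 2.01e-14) and in 1205Lu-R (log2 -0.52 ± 0.038, adjusted p = 4.33e-11). DDX23, a spliceosomal helicase, fell in 1205Lu-R (log2 -1.07 ± 0.065, adjusted p = 1.61e-12) and in 451Lu-R (log2 -0.99 ± 0.052, adjusted p = 9.31e-13).

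Spliceosome core genes, whose products place EIF4A3 on mRNA, gave 16 that fell and 1 that rose of 18 in 451Lu-R (median -0.41), and 13 that fell and 1 that rose in 1205Lu-R (median -0.50). U2AF2, which recognises the polypyrimidine tract, fell from 274.3 and 251.4 CPM to 46.02 and 44.4 CPM in 451Lu-R (log2 -2.56 ± 0.049, adjusted p = 7.32e-20), and also in 1205Lu-R (log2 -1.82 ± 0.040, adjusted p = 2.51e-20). SF3A3 of the U2 particle fell in both lines (log2 -1.14 ± 0.045, adjusted p = 9.59e-15, and -0.92 ± 0.043, adjusted p = 1.30e-14). AQR, the intron-binding helicase, rose in 451Lu-R (log2 0.44 ± 0.051, adjusted p = 1.54e-07) and CDC5L, of the Prp19 complex, in 1205Lu-R (log2 0.34 ± 0.047, adjusted p = 9.42e-07).

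Transcripts known as substrates of the pathway were called in both directions. Of 25 such genes 13 fell and 8 rose in 451Lu-R (median -0.24), where 38.6% of all genes tested were called lower and 41.3% higher. In 1205Lu-R 12 fell and 10 rose (median -0.069), beside 37.8% and 40.4% of all genes tested. Nothing is read from these counts. GADD45A, a growth-arrest gene, rose from 14.9 and 15.4 CPM to 123.0 and 110.7 CPM in 451Lu-R (log2 2.92 ± 0.075, adjusted p = 8.61e-18) and from 38.2 and 41.7 CPM to 113.8 and 113.5 CPM in 1205Lu-R (log2 1.52 ± 0.053, adjusted p = 7.03e-17). Its relative GADD45B rose in 1205Lu-R (log2 3.14 ± 0.062, adjusted p = 3.90e-21) and in 451Lu-R (log2 3.31 ± 0.19, adjusted p = 2.89e-12). The stress-response factor ATF3 rose in 451Lu-R (log2 2.99 ± 0.18, adjusted p = 6.87e-12) and in 1205Lu-R (log2 2.32 ± 0.17, adjusted p = 2.35e-11). HNRNPL, a splicing regulator that controls its own decay-prone isoform, fell in both lines (log2 -1.67 ± 0.033, adjusted p = 1.28e-19, and -1.37 ± 0.033, adjusted p = 1.06e-19). SNHG1, a host of small nucleolar RNAs, fell in 451Lu-R (log2 -1.21 ± 0.13, adjusted p = 4.63e-08) and in 1205Lu-R (log2 -0.68 ± 0.098, adjusted p = 1.91e-06). BAG1, a co-chaperone, fell in 1205Lu-R (log2 -0.72 ± 0.12, adjusted p = 1.85e-05) and in 451Lu-R (log2 -0.82 ± 0.12, adjusted p = 4.72e-06). Gene-level counts do not separate decay-prone isoforms from others, so they give no measure of decay. The plot of the lists shows the medians of the 6 lists and of the 10 genes below 0 in both lines.

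**Figure D4:**
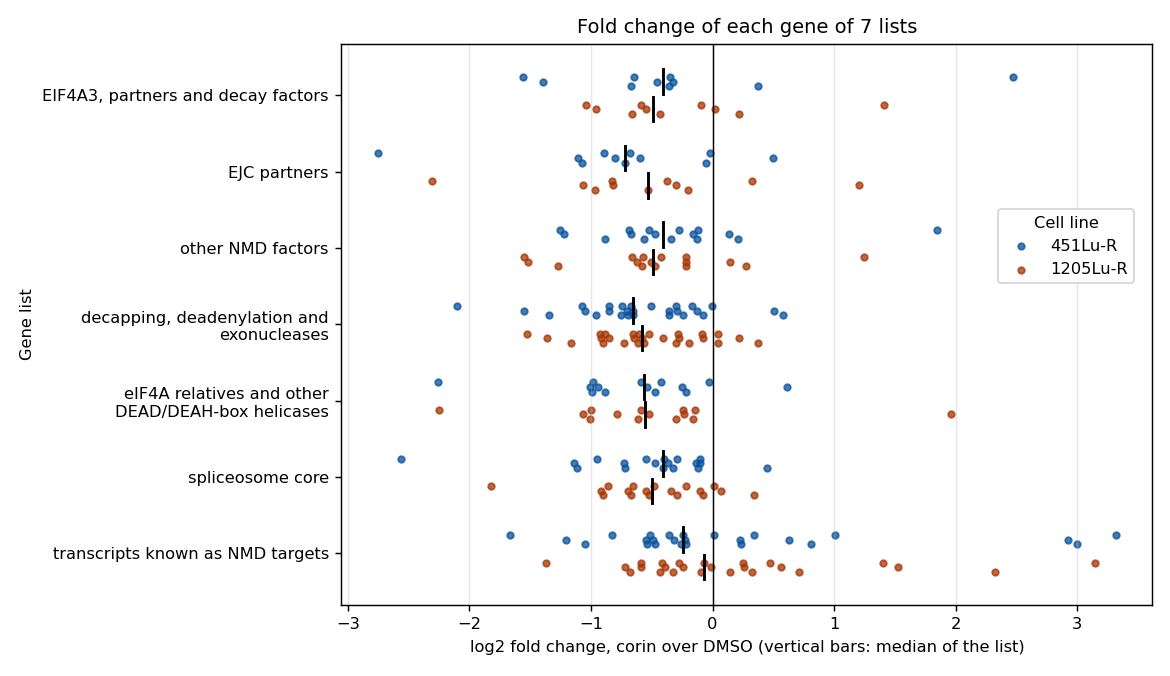
Log2 fold change with corin over DMSO of every tested gene of 7 lists, with blue points for 451Lu-R, brown points for 1205Lu-R and a vertical bar at the median of each list. The medians run from -0.72 (outer exon junction complex partners in 451Lu-R) to -0.069 (known decay targets in 1205Lu-R), and EIF4A3 is the right-most point of the top row in each line.

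The genes whose levels followed EIF4A3 most closely, by Pearson's r of log2 CPM over the 8 libraries among 10009 genes with a mean of at least 10 CPM, were PANK3 (r = 0.9992), AKIRIN1 (0.999), NQO1 (0.9985), KDM3A (0.9978) and PLXNA3 (0.9975). The 8 libraries form 4 groups of close replicates, so r describes in effect the order and spacing of 4 group levels, and it is given without a p-value. NQO1, a quinone reductase, was at 606.6 and 624.9 CPM with DMSO and 2118 and 2113 CPM with corin in 451Lu-R and at 325.7 and 309.3 CPM and 715.5 and 698.9 CPM in 1205Lu-R. PANK3, a pantothenate kinase, had the highest r with a narrower range, from 127.6 CPM in 1205Lu-R with DMSO to 300.7 CPM in 451Lu-R with corin. None of the 5 belongs to the 6 pathway lists.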

How the data were processed

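RNA-Seq of 451Lu-R and 1205Lu-R cells was used as deposited. Per the labels and methods, Trimmomatic was applied to the reads, and Salmon assigned them to transcripts of GENCODE 32, which were summed to genes. Tool versions are not given in the sources used here. The authors deposited the resulting expected counts (also called estimated counts), without normalization, for 8 libraries. The deposited tables for PLX4032 plus corin hold the authors' own log2 fold changes and adjusted p-values and were not used.

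Of 34228 gene IDs, 34052 were matched to symbols through GENCODE 44. That release also gave lengths, overlaps and 31-base words, so these may differ slightly from the authors' annotation. Counts were rounded to whole numbers. Groups followed the labels, with no sequencing batch given. Corin was compared with DMSO within each line with edgeR 4.0.16 in R 4.3.3 (filterByExpr, TMM, glmQLFit, glmQLFTest, 2-sided, Benjamini-Hochberg adjustment over all genes tested). The lines were compared with DMSO, and in their response to corin by an interaction term, over all 8 libraries. Printed CPM use TMM factors over the 8 libraries. The SE of a log2 fold change was derived as its size divided by the square root of the edgeR F statistic. That statistic uses a spread moderated over all genes, so the SE is not from the libraries of the gene alone. Genes were called at an adjusted p under 0.05, or under 0.01 with a log2 fold change over 1 in size. The code was tested on simulated data. DESeq2 1.42.0, other scalings and filters, the replicate number as a block, the counts of copies added to a gene and leaving out each library were tried as alternatives.

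The 10 genes and the lists were chosen with earlier results of these data known. Genes named from each of the 6 lists are, per line, the 2 largest rises and 2 largest falls at an adjusted p under 0.05, averaging 10 CPM or more, without overlap between treatments. The genes most like EIF4A3 are the 5 with the highest r. The chi-square of counts between replicates, divided by its degrees of freedom, was 1.34 to 1.41, above sampling noise in every group, and no 2 libraries were identical. At totals of 9516687 to 11797788 counts, UPF3B in both lines and MAGOHB in 451Lu-R had the fewest counts and the widest SEs.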

Additional observations from a re-analysis of the deposited data

Results flagged for a closer look

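A difference between the cell lines in the response to corin was called by the edgeR interaction test (adjusted p under 0.05) for 22 of the genes named from the pathway lists. It was not called for the remaining named genes, which were CWC27, PNRC2, DHX34, EXOSC8, DDX39A, DDX23, GADD45B and BAG1. Of all 16062 genes tested, 22.6% were called higher and 27.1% lower in the same contrast. The genes were named for large changes within a line, so these calls are not independent of the naming, and nothing is read from their number. Each value is the log2 fold change in 1205Lu-R minus that in 451Lu-R, estimated in a fit over all 8 libraries. It can therefore differ slightly from the subtraction of the values printed for each line. The response was greater, or the fall smaller, in 1205Lu-R for EIF4A2 (1.31), EXOSC5 (1.15), U2AF2 (0.70), NXF1 (0.67), SNHG1 (0.49), DDX39B (0.45), CDC5L (0.44), ALYREF (0.40), SAP18 (0.31), EDC4 (0.30), HNRNPL (0.26), PNN (0.25) and SF3A3 (0.18). It was smaller, or the fall larger, for GADD45A (-1.44), ATF3 (-0.71), CTIF (-0.64), AQR (-0.59), CNOT8 (-0.57), SMG9 (-0.37), EXOSC10 (-0.33), DDX6 (-0.22) and DIS3 (-0.17).

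Among others, EIF4A2 (adjusted p = 5.35e-16), GADD45A (adjusted p = 1.63e-10), U2AF2 (adjusted p = 1.25e-07), NXF1 (adjusted p = 5.19e-07) and EXOSC5 (adjusted p = 4.77e-06) kept the call in every alternative tried. The calls for PNN (adjusted p = 0.0356, up to 0.281 over the alternatives), SMG9 (0.0355, up to 0.375), SF3A3 (0.0397, up to 0.203), ATF3 (0.0484, up to 0.265), SNHG1 (0.0161, up to 0.0994) and DIS3 (0.0293, up to 0.640) were lost in 4 or more alternatives. Those for DDX6 and EXOSC10 were lost with library size alone (differences of -0.011 and -0.12) and without corin replicate 1 of 451Lu-R. DIS3 changed sign with library size alone (0.04).

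SMG1 was higher in both corin libraries of 451Lu-R and lower in both of 1205Lu-R than in the DMSO libraries of the same line, a difference of -0.51 that is given without a p-value, because the gene was chosen from these values. It was -0.33 with the counts of its copies added and -0.30 with library size alone.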

How the results depend on the processing

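Among recomputed values of single genes 485 moved by less than the spread between replicates and 95 by more, and among counts and shares 666 held and 30 did not. The sign of the EIF4A3, MAGOH, MAGOHB, RBM8A, CASC3, UPF2 and UPF3A differences with corin was kept in both lines under every alternative tried. EIF4A3 ran from 2.37 to 2.49 in 451Lu-R and from 1.36 to 1.49 in 1205Lu-R on the log2 scale. UPF1 in 1205Lu-R, at 0.018, changed sign in 4 alternatives. Replicate numbers did not pair the libraries (deviations from group means correlated at -0.014 and -0.0053), and with the replicate number as a block 11500 genes were called in 451Lu-R against 11612 without it, 11418 against 11396 in 1205Lu-R, 11304 against 12111 between the lines and 7731 against 7984 for the difference in response. The block changed no count of calls in a list by over 1.5 times.

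With library size alone, called genes became 2 (from 1) of the 10 genes higher in 1205Lu-R and 5 (from 2) higher in the difference between lines. In 1205Lu-R the spliceosome genes that rose became 3 (from 1). In the difference between lines, higher calls became 4 (from 2) for the other decay factors, 11 (from 6) for decapping and exonuclease genes, 10 (from 5) for helicases and 11 (from 6) for spliceosome genes, and lower calls became 3 (from 9), 1 (from 3) and 2 (from 5) for the last 3 lists. This scaling leaves out the composition correction, which moves all genes together. With DESeq2 the decapping and exonuclease genes that rose in 1205Lu-R became 1 (from 2), and in the difference between lines 4 (from 7) exon junction complex partners were higher and 1 (from 3) helicase lower. DESeq2's size factors in edgeR also left 1 helicase. Leaving out 1 library at a time, which assumes that the lone library left varies like the other groups, gave 4 to 7 partners higher, 5 to 9 decapping and exonuclease genes lower and 1 to 3 helicases lower. The lowest values came without DMSO replicate 2 of 1205Lu-R for the partners (4), without corin replicate 1 of 451Lu-R for the decapping genes (5), and without any 1 of the 4 corin libraries for the helicases (1). The cause was not tested.

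With canonical transcript lengths, chosen after seeing the data, MAGOHB shares in 1205Lu-R were 34.1% with DMSO and 26.9% with corin. UPF3A shares were then 85.2% (DMSO) and 84.9% (corin) for 451Lu-R, and 80.3% and 70.0% for 1205Lu-R. EIF4A3 shares were 8.36% (DMSO) and 45.9% (corin) for 451Lu-R, and 6.47% and 17.6% for 1205Lu-R. Depth limits UPF3B most, and MAGOHB in 451Lu-R.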
